A study of Mus musculus with 8 samples.

Results

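The data described here are the chromatin accessibility of 35 genes of the interferon response and of antigen presentation in cells derived from mouse mammary tumors. The 35 genes were taken from a list and not selected by their values, but earlier results of these data were known when it was chosen. Each was located by its GENCODE M21 annotation among 21837 genes on chromosomes 1 to 19 and X of GRCm38 (mm10). They comprise 6 transcription factors, 2 RNA sensors, 13 antiviral effectors, 2 genes of the ISG15 system, 8 genes of class I presentation, 2 regulators of presentation, 1 checkpoint ligand and 1 chemokine.

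ATAC-seq, in which the Tn5 transposase cuts open chromatin, was performed on 8 libraries, 2 for each of 4 groups. All cells were PyMT tumor-derived cell lines of strain FBV/N, so all carried the PyMT oncogene that drove the tumors. Cells were WT or Lats1-CKO, that is, depleted of Lats1, a kinase of the Hippo pathway. They were sorted into a luminal population (EpCAM-high; CD49f-high) and a basal population (EpCAM-low; CD49f-high), which the study calls basal-like. The WT luminal libraries are named BM1 and BM5, those of WT basal cells BM2 and BM6, those of Lats1-CKO luminal cells BM3 and BM7, and those of Lats1-CKO basal cells BM4 and BM8. Values are given in this order. The sorted cells were briefly expanded in culture before the assay, which limits them as a model of the tumor. The study calls the 2 libraries of a group biological replicates, and the labels do not say whether they came from separate animals or cultures. The age of the animals behind the lines and the promoter that drove Cre are not given in the sources used here.

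Interferons bind receptors that activate STAT and IRF transcription factors. A complex that contains STAT2 and IRF9 binds the interferon-stimulated response element, and its target genes encode antiviral proteins. Interferon also raises the class I presentation machinery, which carries peptides from the proteasome through the TAP transporter onto H2 molecules paired with B2m. Tumor cells use this machinery when they are recognized by T cells.

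The number of peaks ranged from 14753 in BM3 to 99022 in BM8, and the other libraries held between 51497 and 93467. BM3 therefore stood apart from the rest, and results that rest on it are given with and without it. A peak was counted for a gene when it lay within 1 kb of one of the gene's annotated transcription start sites (TSSs). Its strength is given as a score percentile, the percentage of all peaks of the same library with a lower score, ties counted at their middle. If a gene had several such peaks in a library, the strongest was taken, so values can come from different places. The median score percentile of all genes with a TSS peak was 65.7 in BM3 and 77.1 to 84.4 in the others. Dhx58, another gene of the pathway, had score percentiles of 14.9 in BM3 and 50.2 in BM1, but rank percentiles among all genes of 67.9 and 50.9. Score percentiles of BM3 are thus not level with the others, and groups are compared below by rank. Rank is not level for BM3 either. Only 34.5% of genes had a TSS peak there, so any called peak takes a high rank. Tbk1, for example, had a score percentile of 3.18 in BM3 and a rank percentile of 65.9. A gene with a peak in BM3 could therefore not be low by rank, whatever the strength of that peak. Where a gene is given as "none", no peak was called there. A peak can be missed for lack of reads as well as for closed chromatin, and the depth of each library is unknown. Lats1 had a TSS peak in all libraries but BM3, with score percentiles of 57.6 (BM1), 62.4 (BM5), 53.6 (BM2), 57.8 (BM6), 75.2 (BM7), 81.5 (BM4) and 74.7 (BM8). A peak at the start of the gene does not show whether a part of it was deleted, so this is no check of the genotype. Of 5 luminal or pan-epithelial marker genes, 4 or 5 had a TSS peak in every library but BM4 and BM8, where 1 had one (Krt8) and Epcam, Krt18, Cdh1 and Cldn3 had none. Of 5 basal-like epithelial markers, 2 or 3 had a TSS peak in each library.

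Most of the 35 genes had an accessible start site. A TSS peak was called at 27 of them in BM1, 24 in BM5, 29 in BM2, 28 in BM6, 17 in BM3, 26 in BM7, 31 in BM4 and 25 in BM8. The share of all genes with such a peak was 57.5% in BM1, 50.8% in BM5, 55.7% in BM2, 52.4% in BM6, 34.5% in BM3, 59.1% in BM7, 57.0% in BM4 and 58.1% in BM8. The share of the listed genes was above that of all genes in each library, for example 88.6% against 57.0% in BM4 and 48.6% against 34.5% in BM3. BM3 had the lowest count and BM4 the highest, although both were Lats1-CKO. WT libraries had a mean count of 27.0 ± 2.16 (SD, n = 4), and the mean of Lats1-CKO libraries was 24.8 ± 5.80 (SD, n = 4), a difference of less than the spread. It was 23.5 ± 4.51 (SD, n = 4) in luminal and 28.3 ± 2.50 (SD, n = 4) in basal libraries. Without BM3, the Lats1-CKO count exceeded that of WT by 0.333 genes and the basal count exceeded the luminal by 2.58 genes.

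**Figure D1:**
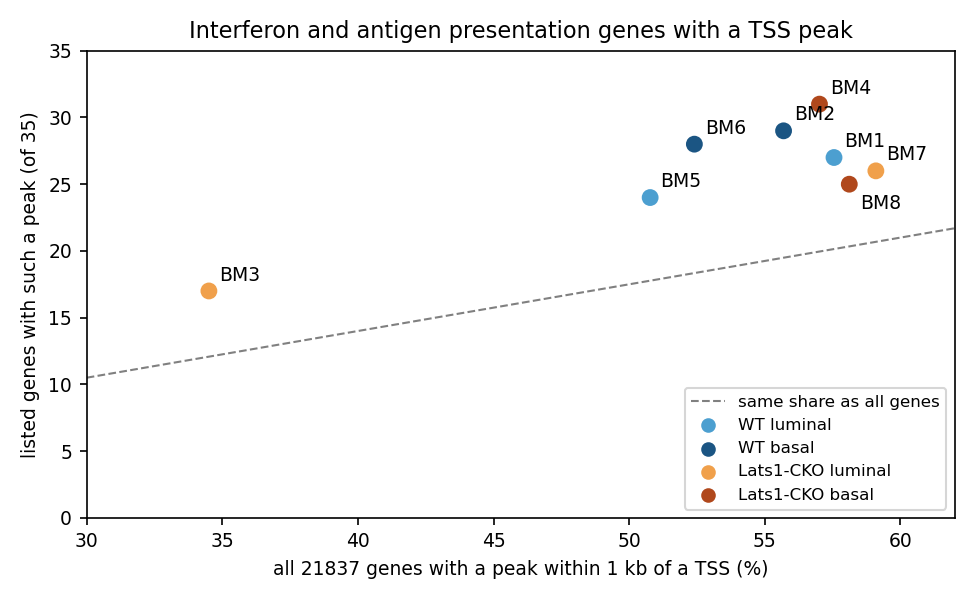
The number of the 35 genes that had a TSS peak (vertical axis) against the percentage of all 21837 genes that had one (horizontal axis, which starts at 30%), 1 point per library, colored by group. The dashed line marks the same share as all genes, and all 8 libraries lie above it, from 17 genes in BM3 to 31 in BM4.

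A TSS peak was present in all 8 libraries for 15 of the 35 genes, compared with 32.4% of all genes, and in none for 2, compared with 33.2% of all genes. A group of 8 genes had one in 7 libraries, 2 in 6, 1 in 5, 1 in 4, 1 in 3, 2 in 2 and 3 in a single library. In the 7 libraries without BM3, 21 of the 35 genes had a TSS peak in each. The share of all genes for this was not computed. It is not the 32.4% above, since a further 13.2% of all genes had a peak in 7 of the 8 libraries. The genes with peaks in every library belonged mainly to class I presentation (6 of 8) and to the transcription factors (4 of 6). Those with peaks in 3 libraries or fewer were, except for Isg15 and Ciita, antiviral effectors.

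**Figure D2:**
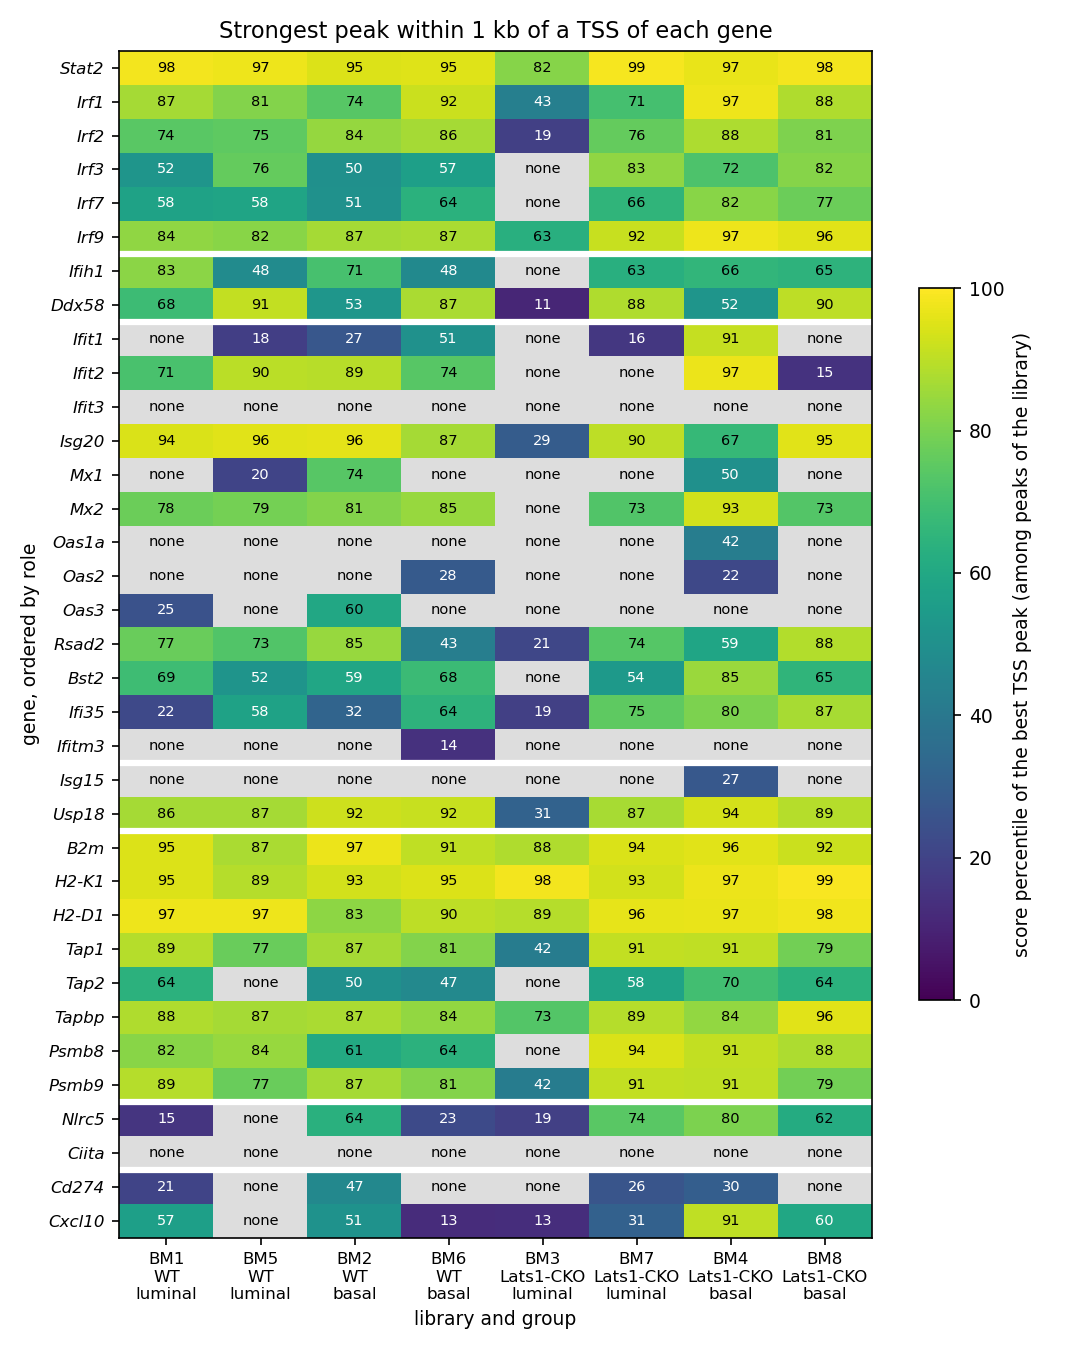
Score percentile of the strongest peak within 1 kb of a TSS for each of the 35 genes (rows, ordered by role) in each library (columns, ordered by group), with grey where no peak was called. The rows of Stat2, B2m, H2-K1 and H2-D1 are at 82.0 or above in all libraries, while Isg15 and Oas1a are filled in BM4 only.

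Among the transcription factors, Stat2 (ENSMUSG00000040033, chromosome 10, 128270559 to 128292849, plus strand), a subunit of the complex that binds the response element, had the highest median. Its TSS peak was at 98.4 in BM1, 97.4 in BM5, 94.8 in BM2, 95.2 in BM6, 82.0 in BM3, 98.6 in BM7, 96.8 in BM4 and 98.2 in BM8. The peak covered the first exon and the sequence before it (chr10:128270250-128270631). WT and Lats1-CKO libraries overlapped, as did luminal and basal ones. Irf9 (chromosome 14, 55603571 to 55610030), the DNA-binding subunit of the same complex, had 83.6 in BM1, 82.2 in BM5, 86.5 in BM2, 87.2 in BM6, 62.9 in BM3, 91.7 in BM7, 97.3 in BM4 and 95.5 in BM8. BM4 and BM8 were the highest, and BM3 was the lowest by score percentile but not by rank. Irf1, which is induced by interferon gamma and drives class I genes, had 86.6 in BM1, 81.3 in BM5, 74.0 in BM2, 92.0 in BM6, 43.0 in BM3, 70.7 in BM7, 97.4 in BM4 and 87.9 in BM8. Its lowest libraries by score percentile were those of Lats1-CKO luminal cells, which for BM3 did not hold by rank. The genotypes overlapped, as did the populations. Irf2, which opposes Irf1 at many promoters, had 74.4 in BM1, 75.4 in BM5, 84.3 in BM2, 86.4 in BM6, 19.0 in BM3, 76.4 in BM7, 87.6 in BM4 and 80.7 in BM8. BM3 was its lowest library by score percentile but not by rank. A start site of Gm16675 lies within 1 kb of one of the TSS regions of Irf2 (chr8:46739476-46739804). Irf3 and Irf7, which induce type I interferon after virus sensing, had no TSS peak in BM3. Irf3 had 52.0 in BM1, 76.3 in BM5, 50.4 in BM2, 56.6 in BM6, none in BM3, 83.5 in BM7, 72.1 in BM4 and 81.9 in BM8. By score percentile it was highest in BM7 and BM8, the Lats1-CKO libraries with the most peaks, and by rank in BM5. For Irf7 the values were 57.6 in BM1, 58.4 in BM5, 50.7 in BM2, 63.8 in BM6, none in BM3, 65.6 in BM7, 82.3 in BM4 and 77.4 in BM8, highest in both Lats1-CKO basal libraries. The Irf3 peak lies at a start site shared with Bcl2l12 and cannot be assigned to either gene.

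Both cytosolic RNA sensors were accessible in the 7 libraries other than BM3. Ddx58, which encodes RIG-I, had 68.4 in BM1 and 90.7 in BM5, 52.6 in BM2 and 87.1 in BM6, 88.1 in BM7, 52.3 in BM4 and 89.8 in BM8. BM1, BM2 and BM4 were thus low and the other library of the same group was high in each case. BM3 had a weaker peak (10.6) at another place near the gene's start. Ifih1, which encodes MDA5, had 82.6 in BM1, 48.2 in BM5, 70.8 in BM2, 47.6 in BM6, none in BM3, 63.2 in BM7, 65.9 in BM4 and 64.8 in BM8, highest in the WT libraries BM1 and BM2.

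Promoter sequences are shown here to set the response element of these genes beside their peaks. The element was searched as GAAA, any 2 bases, GAAA, on both strands of the RefSeq promoters of GRCm38.p6 (250 bases before and 50 after the start). A promoter was matched for 28 of the 35 genes and for 16438 of all genes. It held the element in 14 of the 28, compared with 4.04% of all promoters. The gamma-activated site, searched as TTCNNNGAA, was present in 9 of the 28, compared with 9.05% of all promoters. The stretches below, 5′ to 3′ on the strand of the gene with capitals marking the element on either strand, are from genes that had a TSS peak in BM4 only (Isg15, Oas1a), in no library (Ifit3), in 5 libraries (Ifit1) and in all 8 (Stat2, B2m).
Isg15, chr4:156200845-156200926, minus strand: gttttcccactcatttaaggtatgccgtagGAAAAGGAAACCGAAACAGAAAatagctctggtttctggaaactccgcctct
Oas1a, chr5:120907500-120907575, minus strand: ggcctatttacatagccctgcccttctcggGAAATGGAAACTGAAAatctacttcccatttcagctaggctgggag
Ifit3, chr19:34583343-34583446, plus strand: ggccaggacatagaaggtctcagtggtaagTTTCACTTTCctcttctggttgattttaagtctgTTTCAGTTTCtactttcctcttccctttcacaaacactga
Ifit1, chr19:34640755-34640843, plus strand: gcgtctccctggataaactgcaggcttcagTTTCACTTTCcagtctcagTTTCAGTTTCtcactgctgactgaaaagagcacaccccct
Stat2, chr10:128270248-128270315, plus strand: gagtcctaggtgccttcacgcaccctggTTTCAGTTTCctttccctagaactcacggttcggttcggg
B2m, chr2:122147518-122147587, plus strand: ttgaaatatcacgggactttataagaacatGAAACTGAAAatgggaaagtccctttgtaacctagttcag
Isg15 held 3 overlapping matches starting 78 to 66 bases before its start site, Oas1a held 2 that overlapped, and Ifit1 and Ifit3 held 2 separate ones each, while Stat2 and B2m held 1. The element was present in all 5 matched genes with a TSS peak in at most 3 libraries, whose promoters held a median of 3 CpG dinucleotides (1 to 6). It was present in 5 of the 14 matched genes with a peak in all 8 libraries, whose promoters held a median of 15 (3 to 43). Among all genes, the median number of CpG dinucleotides was 4 where a peak was called in at most 3 libraries and 24 where it was called in all 8. The element was present in 4.72% and 3.24% of these promoters, respectively. The listed genes with rare peaks thus had a CpG content like that of other genes with rare peaks. These are counts of letters in a fixed window and do not show that a factor was bound.

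Isg15 (ENSMUSG00000035692, chromosome 4, 156199424 to 156200818, minus strand), the ubiquitin-like modifier, had a TSS peak only in BM4, with a score percentile of 27.4. The peak, chr4:156200800-156200903, contained the 3 matches. Oas1a, an enzyme that activates the antiviral RNase L, likewise had its only TSS peak in BM4, at 42.5, and this peak (chr5:120907510-120907626) contained both matches. Neither gene had a TSS peak in BM8, the other Lats1-CKO basal library. These counts rest on the window of 1 kb, since within 5 kb of a TSS a peak was called in all 8 libraries for Isg15 and for Ifitm3, and in 2 for Oas1a. Genes with a TSS peak in BM4 and no other library made up 1.34% of all genes. Ifitm3, which restricts virus entry, had a TSS peak only in BM6, at 14.3, where such genes made up 0.160% of all genes. Ifit3, which binds to other IFIT proteins, had no TSS peak in any library.

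Ifit1 (ENSMUSG00000034459, chromosome 19, 34640871 to 34650009, plus strand), which recognizes foreign RNA caps, differed between libraries of the same group. Its TSS peak was at a score percentile of 18.4 in BM5, 27.1 in BM2, 50.5 in BM6, 16.3 in BM7 and 91.3 in BM4, and it was absent in BM1, BM3 and BM8. The next highest library after BM4 was BM6, and BM8, of the same group as BM4, had none. All peaks lay in 1 region (chr19:34640675-34640916) that contained both matches. A start site of Ifit1bl2 lies within 1 kb of this region, so its peaks cannot be assigned to Ifit1 alone. Ifit2, the neighbor of Ifit1, had 71.4 in BM1, 89.7 in BM5, 89.4 in BM2, 74.1 in BM6, none in BM3, none in BM7, 97.2 in BM4 and 14.6 in BM8. The 4 WT libraries and BM4 were high, and the other Lats1-CKO libraries had a weak peak or none. In BM8, Ifit2 instead had 3 peaks in its intron, the strongest at 75.1 and centered 1074 bp beyond the start site.

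Mx1 and Mx2 belong to a family of dynamin-like GTPases that block viruses, and GENCODE M21 labels Mx2 a polymorphic pseudogene. Whether either gene makes a working protein in these cells was not tested. Mx1 had a TSS peak in BM5 (20.4), BM2 (73.8) and BM4 (50.3), in an intron near an internal start site, and none in the other 5 libraries. Mx2 had 77.7 in BM1, 79.0 in BM5, 81.4 in BM2, 84.6 in BM6, none in BM3, 72.7 in BM7, 93.1 in BM4 and 73.3 in BM8. BM4 was the highest library here too. Oas2 had a TSS peak in BM4 (21.6) and BM6 (28.4), and these lay at different start sites. Oas3 had one in BM1 (25.3) and BM2 (60.1), both just before the gene, and none elsewhere. A start site of Gm43069 lies within 1 kb of the Oas3 peaks.

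The remaining antiviral effectors were accessible in at least 7 libraries. Isg20, an exonuclease, had the highest median of the group. Its TSS peak was at 94.4 in BM1, 95.5 in BM5, 96.0 in BM2, 86.6 in BM6, 29.2 in BM3, 90.0 in BM7, 66.9 in BM4 and 95.4 in BM8. BM4 and BM3 were thus its lowest libraries. Rsad2, which encodes viperin, had 77.0 in BM1, 72.8 in BM5, 84.6 in BM2, 42.8 in BM6, 21.3 in BM3, 73.6 in BM7, 59.0 in BM4 and 88.4 in BM8. It too was lower in BM4 than in BM8. Bst2, which encodes tetherin, had 69.1 in BM1, 51.6 in BM5, 59.3 in BM2, 68.0 in BM6, none in BM3, 54.1 in BM7, 85.1 in BM4 and 65.4 in BM8, with BM4 the highest. Ifi35 had 22.2 in BM1, 57.5 in BM5, 32.3 in BM2, 64.5 in BM6, 19.0 in BM3, 75.1 in BM7, 80.5 in BM4 and 86.8 in BM8. By score percentile BM8 was the highest and BM3 the lowest library, both Lats1-CKO, but by rank BM3 was not the lowest. Usp18, which removes ISG15 from proteins and dampens interferon signaling, was accessible in every library, at 86.4 in BM1, 86.5 in BM5, 92.3 in BM2, 91.7 in BM6, 31.4 in BM3, 87.0 in BM7, 93.6 in BM4 and 88.9 in BM8. Isg15 lacked a TSS peak in 7 of the same 8 libraries.

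**Figure D3:**
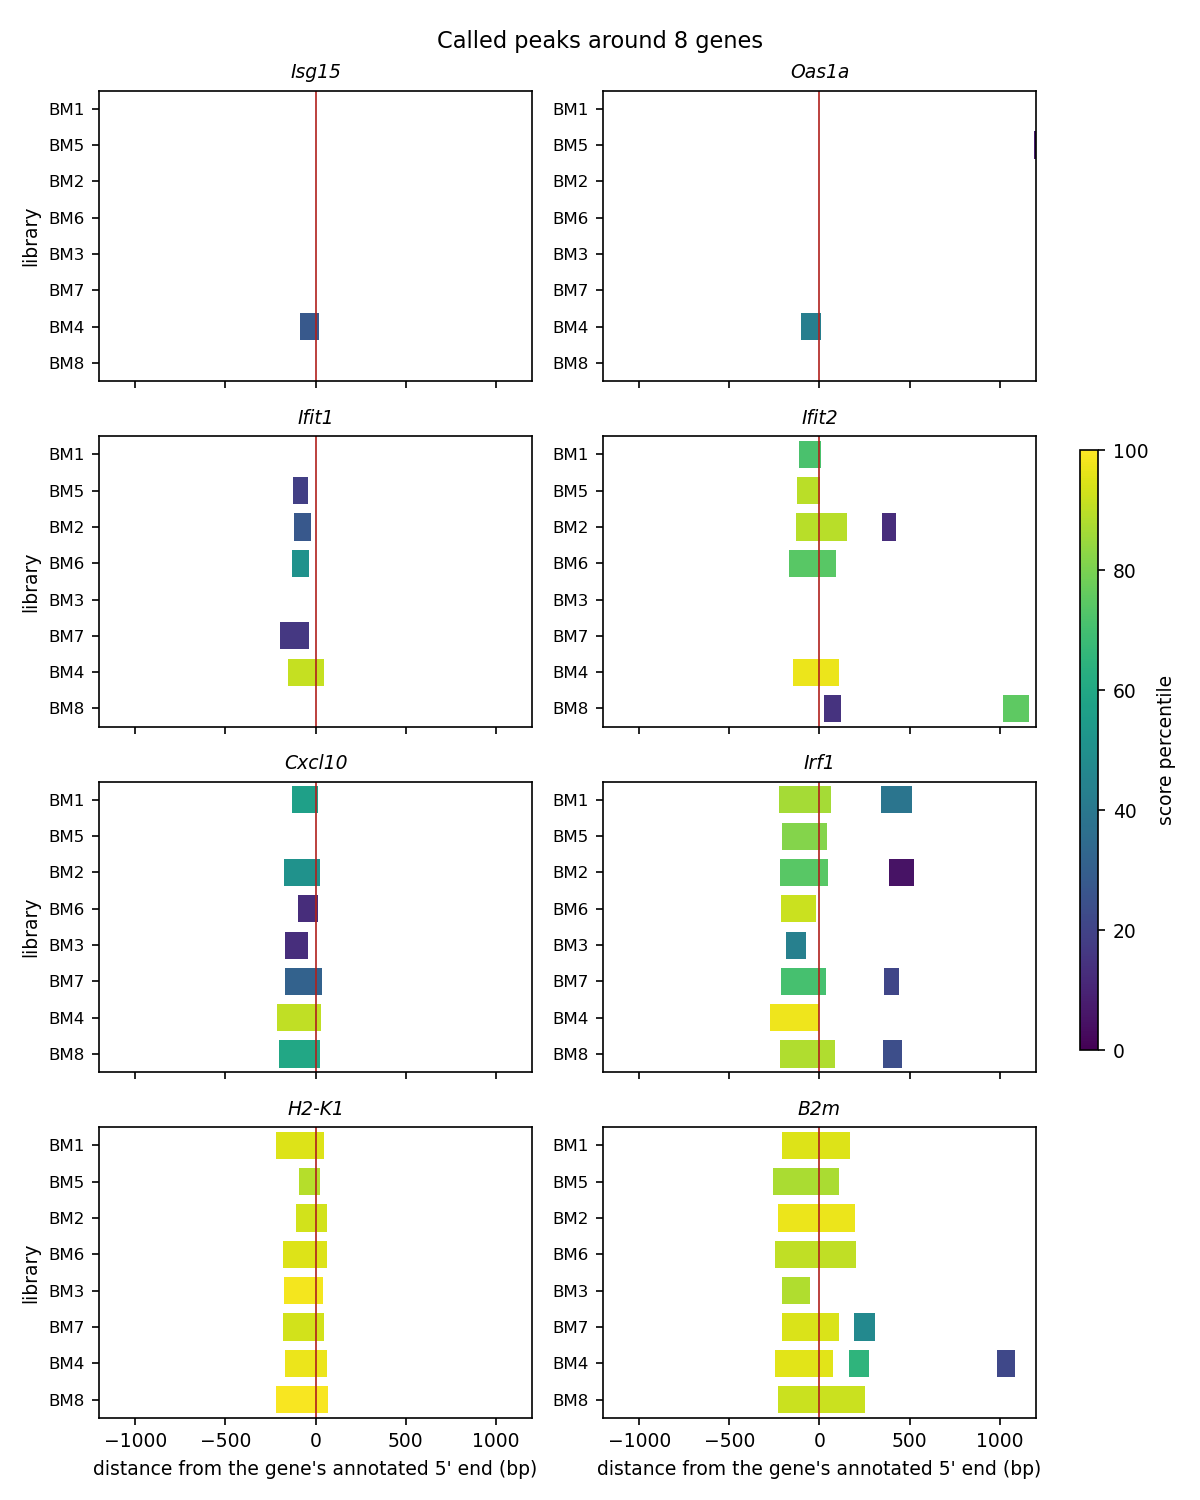
Called peaks around the annotated 5′ end of 8 genes, with the distance from it in bp on the horizontal axis (red line at 0, positive into the gene), libraries ordered by group on the vertical axis, and color giving the score percentile of each peak. Peaks cover the start in BM4 only for Isg15 and Oas1a, and in all 8 libraries at or just before it for Irf1, H2-K1 and B2m.

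Of the 8 class I presentation genes, 6 had a TSS peak in every library, and Psmb8 and Tap2 were the exceptions. H2-D1 (chromosome 17, 35262730 to 35267499, plus strand), a classical class I heavy chain, had 97.3 in BM1, 97.4 in BM5, 82.9 in BM2, 90.2 in BM6, 88.8 in BM3, 96.2 in BM7, 96.8 in BM4 and 98.0 in BM8. The other heavy chain, H2-K1, had 94.5 in BM1, 89.0 in BM5, 93.0 in BM2, 94.9 in BM6, 98.4 in BM3, 93.3 in BM7, 97.1 in BM4 and 98.9 in BM8. Their light chain, B2m, had 94.5 in BM1, 87.2 in BM5, 96.9 in BM2, 90.6 in BM6, 87.9 in BM3, 94.1 in BM7, 95.6 in BM4 and 91.8 in BM8. The 3 genes and Stat2 held the highest percentiles of the 35 in BM3, from 82.0 to 98.4. H2 genes are members of a family with similar sequences and differ between mouse strains. Reads were aligned uniquely to mm10, which is another strain, and the effect of this on their peaks was not tested.

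Tap1, a subunit of the peptide transporter, and Psmb9, an immunoproteasome subunit, lie head to head and share 1 region (chr17:34187291-34187939), so their values are the same measurement. It was at 88.9 in BM1, 77.1 in BM5, 86.6 in BM2, 81.5 in BM6, 42.0 in BM3, 91.0 in BM7, 90.6 in BM4 and 78.7 in BM8. Only BM3 was low by score percentile, and by rank it was not. Tapbp, which encodes tapasin and loads peptides, had 88.1 in BM1, 86.5 in BM5, 87.2 in BM2, 84.0 in BM6, 73.2 in BM3, 88.8 in BM7, 83.7 in BM4 and 95.7 in BM8. These values came from different regions near its start sites. The region at chr17:33915749-33916207, also near the start of Zbtb22, ranged from 7.45 in BM3 to 95.7 in BM8. The region at chr17:33919385-33919686, also near the start of Gm19412, ranged from 48.1 in BM8 to 88.3 in BM7. Psmb8, another immunoproteasome subunit, had 82.3 in BM1, 84.4 in BM5, 60.8 in BM2, 64.2 in BM6, none in BM3, 94.5 in BM7, 90.6 in BM4 and 87.7 in BM8, so that of the libraries with a peak the WT basal ones were lowest. Tap2, the other transporter subunit, had 64.4 in BM1, none in BM5, 50.4 in BM2, 47.1 in BM6, none in BM3, 58.1 in BM7, 69.6 in BM4 and 63.9 in BM8. Its start lies within 1 kb of that of Gm20496, and the peaks cannot be assigned to either gene.

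Nlrc5, the transactivator of class I genes, had 15.4 in BM1, none in BM5, 63.6 in BM2, 22.5 in BM6, 19.0 in BM3, 74.3 in BM7, 80.2 in BM4 and 61.6 in BM8. By score percentile the WT libraries other than BM2 were low, and so was BM3. By rank BM3 was not low, as holds for any called peak there. A start site of 9330175E14Rik lies within 1 kb of this region, so its peaks cannot be assigned to Nlrc5 alone. Ciita, the transactivator of class II genes, had no TSS peak in any library but peaks within its body in all 8. One of these regions, over an exon and centered 21202 bp from the nearest start site (chr16:10510552-10511419), was called in all libraries but BM3, at 48.1 to 80.4. Cd274, which encodes the checkpoint ligand PD-L1, had a weak TSS peak in BM1 (20.6), BM2 (46.7), BM7 (26.2) and BM4 (30.0) and none in the others. A start site of Plgrkt lies within 1 kb of these peaks, which cannot be assigned to Cd274 alone. Cxcl10, a chemokine that attracts T cells, had 56.6 in BM1, none in BM5, 51.1 in BM2, 12.7 in BM6, 12.9 in BM3, 31.2 in BM7, 90.5 in BM4 and 59.6 in BM8. By score percentile BM4 was again the highest, followed by BM8 of the same group. By rank BM3, not BM8, followed BM4, but any called peak ranks high in BM3.

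Peaks within the bodies of the 35 genes, beyond 1 kb of any TSS, fell into 71 regions. Of these, 60 were in introns and 11 in exons. They were less shared between libraries than the TSS peaks: 33 were called in a single library and 0 in all 8. Irf2 held 19, Nlrc5 10 and Ciita 6, and 17 genes had none. One intronic region of Irf2 (chr8:46811368-46811634) was strong in all but BM3 and BM8, at 94.0 in BM1, 91.4 in BM5, 94.4 in BM2, 94.4 in BM6, 71.3 in BM7 and 95.4 in BM4. It was at 20.1 in BM3 and not called in BM8. An intronic region of Ifi35 (chr11:101454738-101455044) had peaks at 89.1 in BM1, 73.9 in BM5, 82.2 in BM2, 80.9 in BM6, 95.8 in BM7 and 92.3 in BM8, and none in BM3 or BM4. BM4 had a peak at 78.8 in a separate region close by (chr11:101454444-101454597), where BM1 had 20.1, BM6 17.1 and BM8 66.1. Among all 133 regions at the 35 genes, 17 were called in BM4 alone, against 11.0% of the 183173 regions formed by merging all peaks, and 9 in BM8 alone, against 11.6%. The share in BM4 was near this background, and that in BM8 was below it.

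To compare genotypes and populations, each gene's best TSS peak was ranked among all genes of its library. This rank percentile places genes without a peak together at the bottom, between 20.5 and 32.7 depending on the library. A model with genotype and population was fitted with limma to the 13475 genes with a TSS peak in at least 2 libraries, 30 of the 35 among them. The difference between genotypes passed an adjusted p of 0.05 (Benjamini-Hochberg) for 0 of the 30 genes, against 0% of all tested genes, and that between populations likewise for 0 of the 30, against 0%. At an unadjusted p under 0.05 there were 915 genes for genotype (6.79% of tested genes) and 753 for population (5.59%). Of these, 2 and 1 were among the 30, which is near those shares. The lowest adjusted p over all genes was 0.303 for genotype and 0.651 for population. In simulated data of this size, 100 genes were shifted between genotypes by 30 points and 100 by 60. The test recovered 59% and 99% of them, so smaller differences would often be missed. The simulation used normal noise without tied ranks of genes lacking a peak, and shifted many genes at once. Its shares need not hold for a single gene in the real data.

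The 2 genes under 0.05 before adjustment for genotype were both higher in Lats1-CKO. Ifi35 had a mean rank percentile of 68.7 in Lats1-CKO and 55.5 in WT libraries, a difference of 13.2 ± 5.38 points (SE, limma, adjusted p = 0.692, n = 8). Nlrc5 had 63.4 and 45.5, a difference of 17.9 ± 7.60 points (SE, limma, adjusted p = 0.692, n = 8). Irf9 was close to them with 8.44 ± 3.62 points (SE, limma, adjusted p = 0.692), and Ifit2 had the largest difference in the other direction, -27.5 ± 13.3 points (SE, limma, adjusted p = 0.692). In the comparison of populations, the lowest p belonged to Usp18, with 84.8 in basal and 75.6 in luminal libraries (9.26 ± 3.92 points, SE, limma, adjusted p = 0.866). Irf9 followed with 8.40 ± 3.62 points (SE, limma, adjusted p = 0.866). None of these passed the test. Ifi35 and Nlrc5 each had a score percentile of only 19.0 in BM3, where any called peak enters the Lats1-CKO mean with a high rank. Of the 30 genes, 23 had a higher mean in basal and 7 in luminal libraries, with a median difference of 5.31 points, compared with 1.14 points over all tested genes. Without BM3, 20 were higher in basal and 10 in luminal libraries, with a median of 5.79 points compared with -0.0556 over all tested genes. For genotype, 10 were higher in Lats1-CKO and 20 in WT, with a median of -1.53 points compared with -0.397 over all tested genes. Without BM3, 13 were higher in Lats1-CKO and 17 in WT, with a median of -1.20 compared with 0.744 over all tested genes.

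**Figure D4:**
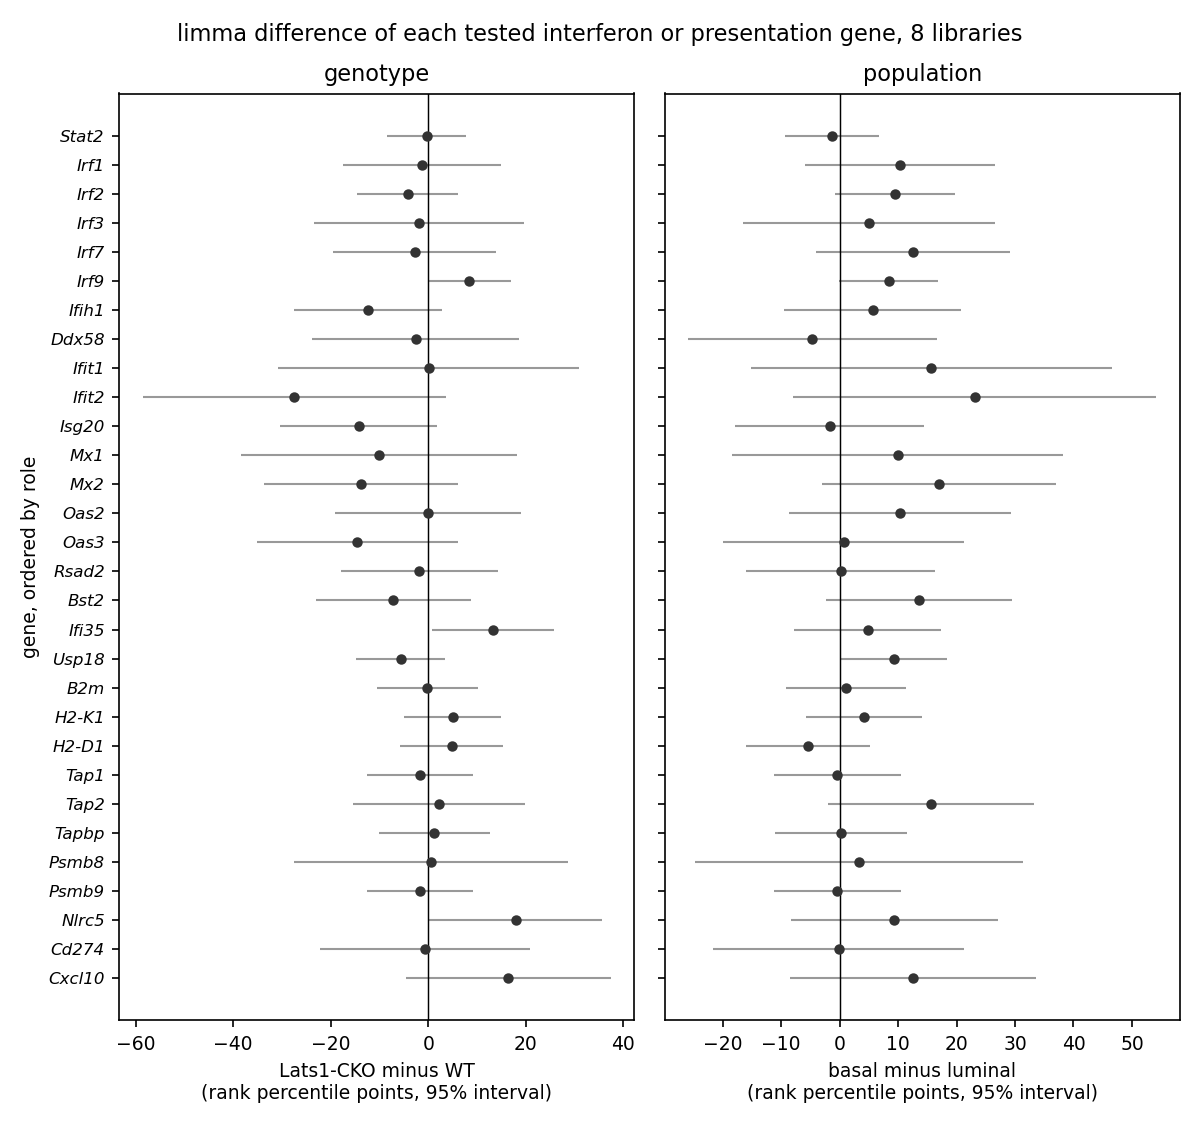
Fitted difference in rank percentile points for each of the 30 tested genes, between genotypes (left, Lats1-CKO minus WT) and populations (right, basal minus luminal), with points for the limma estimate and bars for its 95% interval over 8 libraries. Before adjustment, the interval excludes 0 for Ifi35 and Nlrc5 on the left and for Usp18 on the right, and the widest intervals belong to Ifit1 and Ifit2.

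No gene of the 30 had its 4 Lats1-CKO libraries all above its 4 WT libraries or the reverse, which held for 1.94% and 1.92% of tested genes. Likewise none had all basal above all luminal libraries or the reverse (1.55% and 1.57% of tested genes). Without BM3, the libraries separated for Oas3 between genotypes (all WT above all Lats1-CKO, 4.59% of tested genes), for Irf9 and H2-K1 between populations (all basal above all luminal, 2.25%), and for Stat2 in the other direction (2.89%). For Oas3, BM5 and BM6 and all Lats1-CKO libraries had no peak, so that part of this separation compared only the ranks that each library gives to genes without a peak.

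Libraries of the same group also differed from each other. In the Lats1-CKO basal group, 7 of the 30 genes were over 20 rank percentile points higher in BM4 than in BM8, against 7.09% of tested genes. These were Ifit1, Ifit2, Mx1, Mx2, Oas2, Cd274 and Cxcl10, of which 5 are antiviral effectors. Genes without a peak are at 20.9 in BM8, while even a weak peak of BM4 ranks far above this. Col1a1, for example, had a score percentile of 10.3 in BM4 and a rank percentile of 44.1. Ifit1, Mx1, Oas2 and Cd274 had a TSS peak in BM4 and none in BM8, so they passed the cut whatever the strength of that peak. The reverse held for Ddx58, Isg20 and Rsad2, 3 of the 30, against 9.88% of tested genes. The median difference between BM4 and BM8 was 7.87 points over the 30 genes and 0.543 points over all tested genes. None of the 8 class I genes differed by over 20 points between these libraries. The shares of tested genes were 7.09% (BM4 higher) and 9.88% (BM8 higher), so few of 8 genes would be expected to differ. Tap1 and Psmb9 are moreover a single measurement. This count therefore does not show that class I genes were more stable than other genes. The TSS regions of Ifit1 and Cd274 lie within 1 kb of a start site of another gene and cannot be assigned to them alone. Oas2 had a TSS peak in BM4 and BM6 only, at different start sites. It was thus among the tested genes only through its peak in BM4, and its place among the 7 is no independent result.

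In the other groups, BM5 was over 20 points higher than BM1 for 5 genes (Irf3, Ddx58, Ifit1, Ifit2 and Mx1), against 6.32% of tested genes, and BM1 higher than BM5 for 4, against 14.4%. BM2 was higher than BM6 for 4 (10.7%) and BM6 than BM2 for 2 (5.72%). BM7 was higher than BM3 for 5 (24.0%) and BM3 than BM7 for 1 (5.07%). Across all 8 libraries, BM4 had the highest rank percentile for 12 of the 30 genes, against 16.3% of tested genes, and BM2 for 7, against 9.99%. Each of the other libraries was highest for 1 to 4. Among the 12 were Irf1, Irf7 and Irf9 and, in class I presentation, Tap1, Tap2 and Psmb9. Tap1 and Psmb9 are the same measurement, counted here for both genes. The regions of Tap2, Nlrc5 and Ifit1, also among the 12, lie within 1 kb of start sites of other genes.

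**Figure D5:**
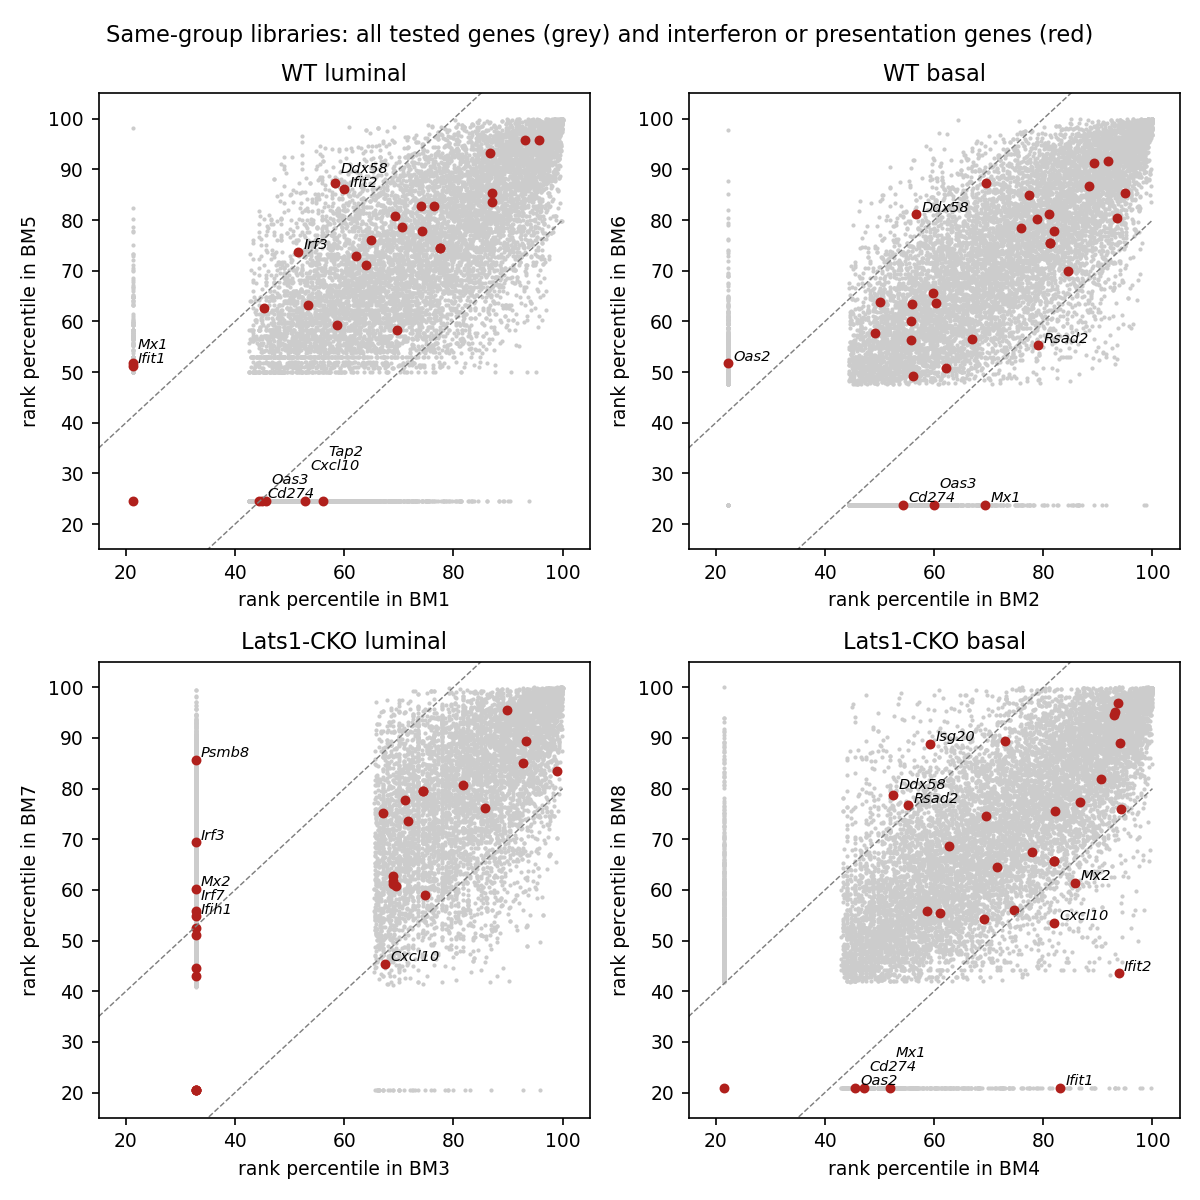
Rank percentile of the best TSS peak in the 2 libraries of each group, 1 library per axis, for the 13475 tested genes (grey) and the 30 tested interferon and presentation genes (red), with dashed lines at a difference of 20 points and names beyond them. In Lats1-CKO basal cells, 7 of the 30 lie beyond the line on the side of BM4 and 3 on the side of BM8.

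BM4 held 86279 peaks and BM8 99022. Both lacked TSS peaks at 4 of 5 luminal or pan-epithelial markers, so these markers did not separate them. Of 8 immune marker genes, 4 had a TSS peak in BM4, 6 in BM8, 5 in BM7, 4 in BM5 and 0 to 3 in the other libraries, and Ptprc, the pan-leukocyte marker, had one in BM8 only. Immune markers were thus not more numerous in BM4 than in BM8. Of 6 fibroblast markers, 3 had a TSS peak in BM4 and 4 in BM8, and of 5 endothelial markers 2 and 1. Single markers differed in both directions. Pdgfrb had score percentiles of 89.9 in BM4 and 49.7 in BM8, and Kdr had 21.6 in BM4 and none in BM8. Krt14 had 30.0 in BM4 and 82.0 in BM8, and Dcn had none in BM4 and 42.3 in BM8. The paper reports a varying enrichment of fibroblasts in Lats1-CKO cultures. What set BM4 apart from BM8 was not tested, and with 2 libraries a difference between them cannot be told apart from one between preparations.

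Other genes of the pathway were counted from lists of 66 genes, of which 52 were tested. The test of genotype passed for 0 of the 52 and that of population for 0. All 5 feedback inhibitors (Socs1, Socs3, Ptpn2, Ptpn6 and Pias1) had a TSS peak in every library. Of 9 receptor and kinase genes, 5 to 8 had one, and of 9 genes for sensing and adaptors 6 to 9. Of 5 interferon ligands, at most 2 had one in any library, and Ifnb1, the gene for interferon beta, had one in BM1 (42.4), BM6 (22.5), BM7 (26.2) and BM8 (45.6), but not in BM4. Among 18 other interferon-stimulated genes, 12 had a TSS peak in each library except BM5 (9) and BM3 (3), and of the 12 tested, 1 (Samd9l) was over 20 points higher in BM4 than in BM8 and 1 (Zbp1) the reverse. The difference between BM4 and BM8 was therefore seen at some interferon-stimulated genes and not across the whole list. Of 11 other genes of the class I machinery, 8 to 11 had a TSS peak, and of 5 class II genes 1 to 5, with the lowest counts in BM3.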

How the data were processed

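ATAC-seq was measured in 8 libraries. According to the study's methods and the labels, the authors trimmed reads with cutadapt, aligned them uniquely to mm10 with Bowtie 1.0.0, removed mitochondrial reads, duplicates (Picard 2.3.0) and long fragments, and called peaks per library with MACS2 (2.1.1.20160309 in the labels, another version in the methods). They deposited 1 blacklist-filtered peak list per library. The deposited score, at least 13 in every list, was taken to be that of MACS2; it rises with depth and was not normalized, so it was used only as a rank within a library. Per-library depth is unknown, so no counting interval is given for a peak. The authors discarded 1 Lats1-CKO luminal replicate for quality, unnamed; both were kept and each was left out in turn.

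Genes were protein-coding or polymorphic pseudogenes of GENCODE M21. limma 3.58.1 (R 4.3.3) was tested on simulated data. Members and lists were chosen with earlier results of these data known. All 35 genes were named; full values were planned for genes called, not overlapping, with a peak in 0 to 3 libraries, or highest in their role. Promoters of 7 genes were not matched. Computation used python 3.11.15, numpy 2.4.6 and pandas 2.3.3. Alternatives were another window, start sites of protein-coding transcripts, peak midpoints, the 10000 highest-scoring peaks, score percentiles, other filters and each library left out.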

Additional observations from a re-analysis of the deposited data

Results flagged for a closer look

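Within the 4 WT or 4 Lats1-CKO libraries, 5 rank percentiles lay far from the rest by Dixon's ratio, of 62 sets tested, where chance flags about 1 in 20. Oas2 in BM6 was at 51.7, and the nearest WT library was at 24.6, the rank of a gene without a peak. Bst2 in BM6 was at 65.7, with the nearest WT library at 59.7. Tap2 in BM5 had no peak and was at 24.6, with the nearest at 55.7. Ifih1 in BM3 had no peak and was at 32.7, with the nearest at 54.8. Oas3 in BM3 was at 32.7, with the nearest at 21.5, and none of the 4 Lats1-CKO libraries had a peak, so that this value reflects only the rank given to genes without a peak in BM3. For Stat2, both Lats1-CKO libraries lay on one side of both WT libraries in luminal cells and on the other side in basal cells. The genotype difference in basal cells exceeded that in luminal cells by 5.43 points, and the interaction did not pass the test (limma, adjusted p = 1.0, unadjusted p = 0.479).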

How the results depend on the processing

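No paired analysis was possible because the library numbers are unique and the labels pair no libraries. The number of the 35 genes called by limma was 0 for genotype and for population under every alternative run. Of all genes tested, 0 were called in each of these fits, except that when only the 10000 highest-scoring peaks per library were used, 15 were called for genotype and 27 for population, none of them among the 35 genes. Under that alternative, 3 of the 35 genes had a TSS peak in all 8 libraries instead of 15, as fewer peaks were used. The 7 differences of named genes printed with limma kept their direction under every alternative that gave them, with adjusted p between 0.373 and 1. The Ifit2 difference between genotypes ranged from -53.2 to -9.36 points. The count of Lats1-CKO minus WT genes with a TSS peak was -2.25 with all libraries, 0.333 without BM3 and -4.33 without BM4, and that of basal minus luminal genes was 2.58 to 5.92 with each library left out. The number of genes over 20 points higher in BM4 than in BM8 was 7; alternatives chosen after the data were seen gave 13 at a difference of 10 points (17.6% of tested genes), 3 at 30 points (2.69%), 10 of 33 within 5 kb (8.90%), 7 of 15 among the 10000 highest-scoring peaks (13.7%), and 6 or 7 of 29 or 30 otherwise (6.59% to 8.45%). Depth is unknown, so a missing peak cannot be told apart from a shallow library.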

Other observations

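The interferon-stimulated response element was also counted over all peaks of each library, a count chosen after the data were seen. It was present in 1.69% of the peaks of BM4 (exact 95% binomial interval 1.60% to 1.78%) and 1.59% of those of BM8 (1.52% to 1.67%), and in 1.04% to 1.43% of those of the other libraries. Among peaks called in no other library, it was present in 1.80% in BM4 (363 of 20182, interval 1.62% to 1.99%), 1.37% in BM8 (290 of 21236, interval 1.21% to 1.53%) and 0.661% to 1.25% in the other libraries. Among the 10000 highest-scoring peaks, the shares were 2.46% in BM4 (2.17% to 2.78%) and 2.49% in BM8 (2.19% to 2.81%), and 1.08% to 2.19% in the other libraries. On this scale the intervals of BM1 (1.90% to 2.49%), BM7 (1.91% to 2.50%), BM2 (1.76% to 2.33%) and BM6 (1.74% to 2.30%) overlapped those of BM4 and BM8. The intervals cover counting error only and not the spread between libraries.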
